A study of Mus musculus with 7 samples.

Results

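Heat shock proteins and their cochaperones were compared between the quadriceps muscles of WT and AR113Q mice on 7 single-colour expression arrays. The family was defined by gene name: the HSP70 (Hspa), HSP110, HSP90 and small heat shock protein (Hspb, Cryab) genes, the mitochondrial chaperonin genes Hspd1 and Hspe1, the J proteins (Dnaja, Dnajb, Dnajc), Bag1 to Bag6, the heat shock factors Hsf1, Hsf2 and Hsf4, and the ubiquitin-linked genes Stub1 and Zfand2a. It held 114 of the 39429 probes of the array and 81 of 31131 genes. Of these, 75 genes were tested, among 16577 genes in all. Each array carried the RNA of 1 mouse: 4 WT mice and 3 AR113Q mice, all C57BL/6 and 3 months old. AR113Q mice are knock-in mice with an expanded polyglutamine tract and serve as a model of spinal and bulbar muscular atrophy (SBMA), studied here before the onset of motor dysfunction. The labels call the controls wild type, while the results text of the study describes knock-in controls with a short repeat, and the sources used here do not settle which is right. The design text adds "NCD" to the name AR113Q and does not explain it. The sex of the mice is not in the labels, and the study states that it used male mice.

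Chaperones bind unfolded proteins and keep them from aggregating. In the HSP70 cycle, J proteins bring clients to HSP70 and stimulate its ATPase, while HSP110 and BAG proteins release the nucleotide and let the client go. HSP90 takes over clients late in folding, among them steroid receptors. Small heat shock proteins hold unfolded proteins without ATP and are abundant in striated muscle, where several of them bind the sarcomere. Heat shock factors are the transcription factors that induce many of these genes under proteotoxic stress. Proteins with long polyglutamine tracts are classical clients of this network.

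Each array had 18785 to 22013 probes well above background (47.6% to 55.8%), and arrays of the same genotype correlated across the genes tested at 0.970 to 0.988. All 8 skeletal muscle markers were well above background on all 7 arrays. Values below are log2 quantile-normalized intensities of the brightest detected probe of a gene, in the order of the replicate numbers, and differences are AR113Q minus WT. As tissue pieces were hybridized, fewer cells of a type and less RNA per cell cannot be told apart. Markers of other cell types differed between the genotypes: 4 of 5 adipocyte markers were downregulated, with a mean log2 intensity of 8.96 to 10.12 on WT and of 7.35 to 8.46 on AR113Q arrays, and of 5 macrophage markers 2 were downregulated and 1 upregulated, with means of 8.66 to 9.39 and 8.35 to 8.96. Their part in the results was not tested.

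In AR113Q muscle 5 family members were upregulated and 5 were downregulated. The upregulated genes were Hspb7, a small heat shock protein of striated muscle, Zfand2a, an arsenite- and heat-inducible partner of the proteasome, the J proteins Dnajc16 and Dnajb9, and Hspa4, an HSP110 protein. The downregulated genes were Hspa12b, a distant HSP70 relative of endothelial cells, the J proteins Dnajb5 and Dnajb3, and the small heat shock proteins Hspb3 and Hspb2. Of these, Dnajb3 passed the filter on dim probes through its WT arrays alone, and 4 were downregulated without it. Hspa4 was called on its brightest probe, while its other probes were lower in AR113Q mice. A gene was called differentially expressed (DEG) where the adjusted p in limma was at most 0.05 and the log2 fold change at least 1 in either direction. This held for 10 of 75 members (13.3%), against 24.3% of all genes tested (11.2% upregulated and 13.1% downregulated). At the adjusted p alone 15 members were higher and 17 lower, together 32 of 75, against 43.6% of all genes (21% higher and 22.6% lower). The genotypes did not overlap in 38 members, 18 higher and 20 lower, against 49.3% of all genes.

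The share of DEGs among the members was thus below that of the whole array, but this order depended on the intensity values used. Of 75 members, 74 were well above background on all 7 arrays, against 13718 of the 16577 genes. With normexp background correction 12% of the members and 10.6% of all genes were DEGs, and in the authors' normalized values 12.3% and 9.17%. With a filter that keeps genes well above background on all 7 arrays the members stayed below, at 12.2% against 21.6%. No difference between the members and other genes was therefore read from these shares. The median log2 fold change of the members was 0.06, against -0.01 over all genes, and 39 members had a higher and 36 a lower mean in AR113Q mice.

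**Figure D1:**
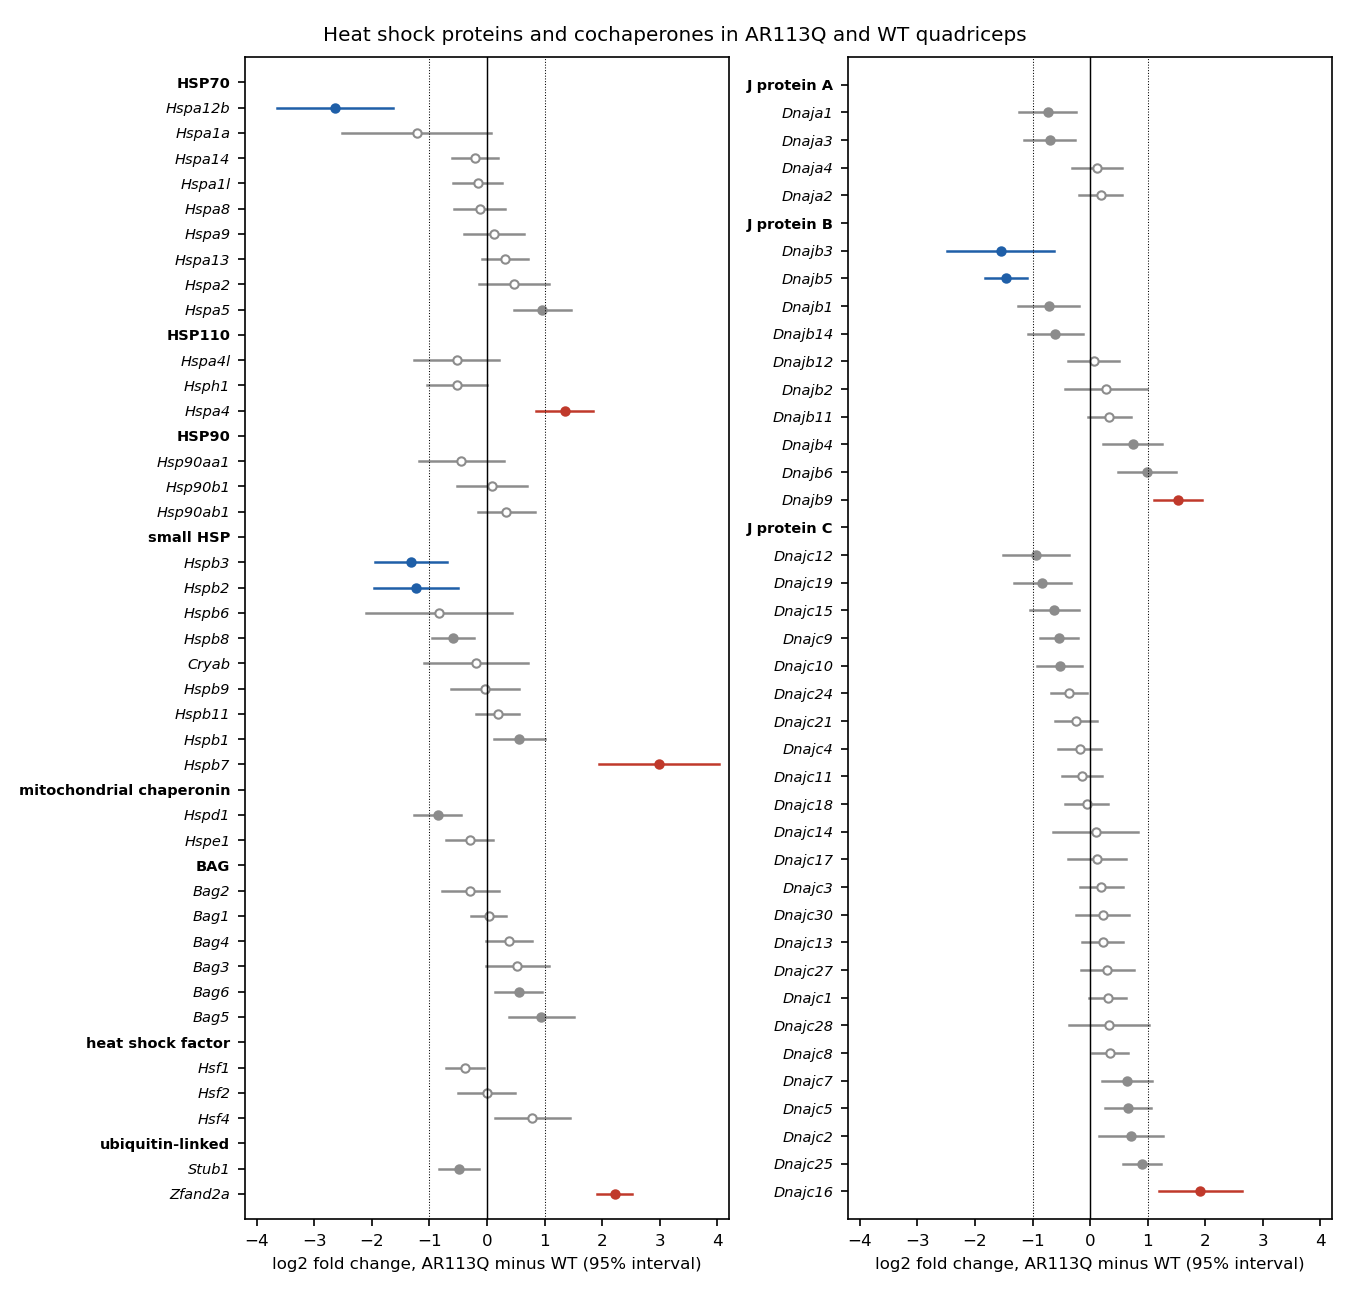
Log2 fold change, AR113Q minus WT, of the 75 members tested, by class. Points are limma estimates and lines their 95% intervals; filled points have an adjusted p of at most 0.05, red and blue mark the 5 upregulated and 5 downregulated genes, and dotted lines stand at -1 and 1. Values run from -2.64 for Hspa12b to 2.99 for Hspb7, and 39 of the 75 lie above 0.

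Slides limit what can be said of genotype. The 7 arrays lay on 5 slides and slide 2 alone carried both genotypes (replicate 2 of WT, replicate 1 of AR113Q). When slide was fitted as a fixed effect, so that the difference rests on this pair, 0 of 75 members and 0 of all 16577 genes were DEGs in limma, and the lowest adjusted p of a member was 0.0523. At an unadjusted p of at most 0.05, 13 members were higher and 10 lower in that fit. As the genotypes did not overlap in any of the 10 DEGs, this pair of arrays could only give them the same sign, which adds nothing to the calls. With slide as a random block all 10 remained DEGs. The correlation within slides was estimated at -0.098, so this fit was nearly the one without slide and adds nothing to the calls. The difference within slide 2 is given beside the DEGs among the members other than Dnajb3, which no AR113Q array measured above background, and beside some other members.

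Zfand2a had the smallest standard error of the 10 DEGs. Its log2 intensity was 9.0, 9.01, 9.06 and 8.96 in WT mice and 11.26, 11.28 and 11.13 in AR113Q mice. All 3 AR113Q arrays lay above all 4 WT arrays, and within each genotype the arrays were close together. Zfand2a was 4.65-fold higher in AR113Q muscle, or 2.22 ± 0.13 on the log2 scale (SE, n = 4 and 3; adjusted p = 5.67e-05, limma), and differed by 2.26 within slide 2. Leaving out any 1 array kept the call, with log2 fold changes from 2.19 to 2.26. The probe lies at chr5:139947208-139947267 on the minus strand of mm9. Zfand2a, also called AIRAP, is a zinc finger protein that binds the proteasome under proteotoxic stress and is a classical target of HSF1.

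Stub1, the other ubiquitin-linked member, encodes CHIP, the ubiquitin ligase that marks HSP70 and HSP90 clients for degradation. Its log2 intensity was 12.12, 12.20, 12.13 and 12.47 in WT mice and 11.69, 11.78 and 11.78 in AR113Q mice. The genotypes did not overlap, and the AR113Q arrays were the lower. The difference was -0.48 ± 0.15 (adjusted p = 0.0338, limma), below the fold change threshold, and -0.51 within slide 2.

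**Figure D2:**
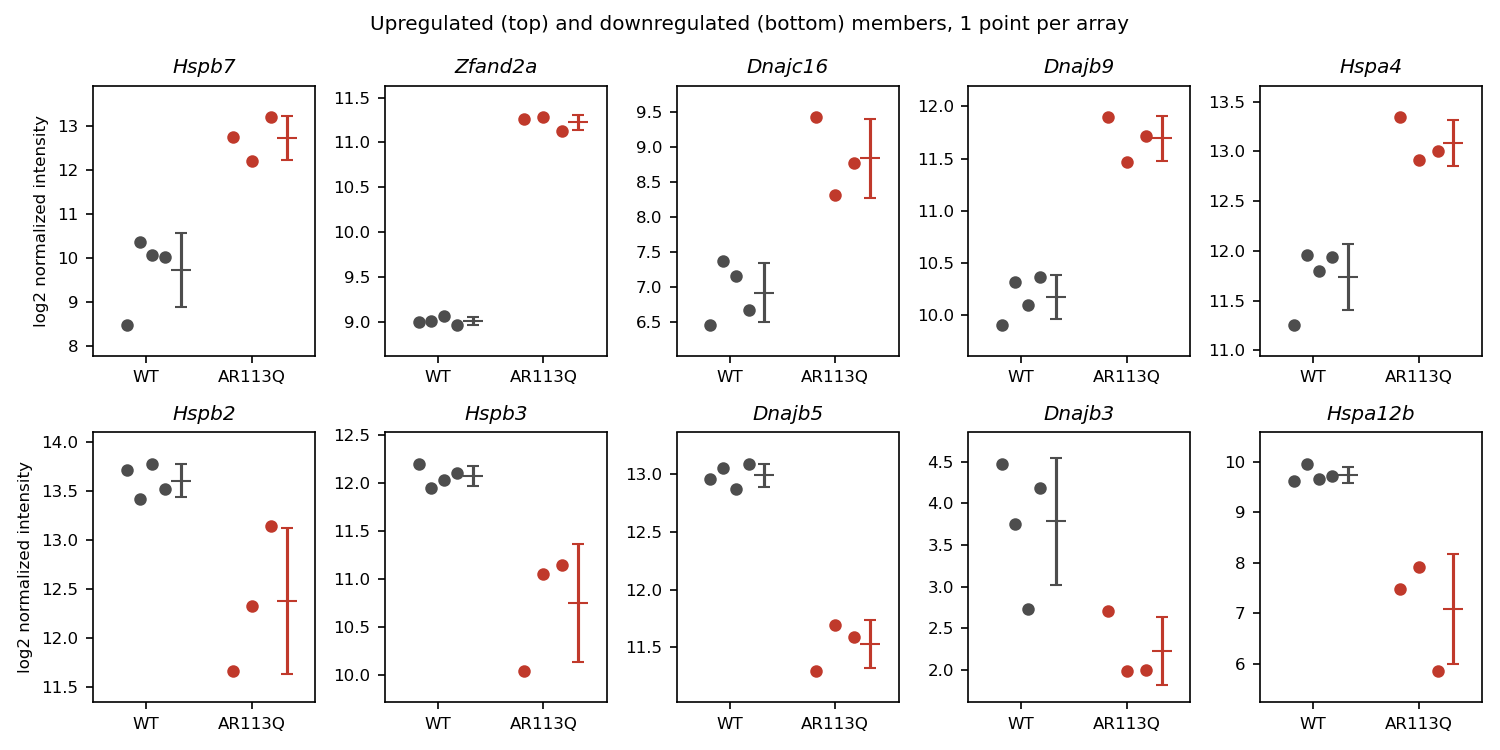
Log2 normalized intensity of the 5 upregulated (top) and 5 downregulated (bottom) members, 1 point per array in the order of the replicate numbers; bars show the mean and SD of each genotype, and each panel has its own axis. Zfand2a lay between 8.96 and 9.06 in WT and between 11.13 and 11.28 in AR113Q mice, while Hspb2 reached 13.14 on AR113Q replicate 3, close to the lowest WT array at 13.41.

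None of the 3 heat shock factors passed the adjusted p, which 43.6% of all genes did, and with 3 genes this count says little. Hsf1, the main stress-induced factor, had a log2 intensity of 9.66, 9.60, 9.51 and 9.72 in WT mice and of 9.27, 9.33 and 9.11 in AR113Q mice. The AR113Q arrays were lower without overlap, with a difference of -0.38 ± 0.14 (adjusted p = 0.0576, limma). Hsf4, known from the lens, differed by 0.79 ± 0.28 (adjusted p = 0.0519) with overlap between genotypes, and passed as a DEG without AR113Q replicate 3. Hsf2, a developmental factor that forms mixed trimers with HSF1, differed by -0.0007 ± 0.22 (adjusted p = 0.998), and the 95% interval ran from -0.50 to 0.50.

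HSF1 trimers bind heat shock elements, arrays of inverted nGAAn units. Their letters were searched on both strands of the RefSeq promoter windows of GRCm38.p6, from 250 bases before to 50 bases after the start of transcription, as GAANNTTC or TTCNNGAA for 2 units. For 3 units, these letters had to be followed, after any 2 bases, by GAA or TTC respectively, so that every 3-unit match contains the 2-unit letters. Windows were at hand for 64 of the 81 members, 82 windows in all. The 3-unit letters stood in 6 of these windows (7.32%), against 0.603% of all 32851 windows, and the 2-unit letters in 19 (23.2%), against 15.1%. Windows of a gene can overlap, and both Dnajb6 windows hold the same match. Counted by gene, 4 of 64 members had the 3-unit letters, against 179 of 27025 genes, and 17 had the 2-unit letters, against 4587. The members with 3 units were Dnajb6, Hspd1, Hspe1 and Hsph1. The stretches upstream of the start of Dnajb6 and of the chaperonin genes are shown because they hold the longest matches, and those of Zfand2a and Hspb3 because these were the DEGs with a 2-unit match; capitals mark the match, with 20 bases on either side, 5′ to 3′ on the strand of the gene.
Dnajb6, chr5:29735832-29735884, plus strand: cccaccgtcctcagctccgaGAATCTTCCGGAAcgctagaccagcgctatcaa
Hspd1, chr1:55088039-55088096, minus strand: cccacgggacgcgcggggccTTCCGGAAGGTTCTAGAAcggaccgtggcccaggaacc
Hspe1, chr1:55088039-55088096, plus strand: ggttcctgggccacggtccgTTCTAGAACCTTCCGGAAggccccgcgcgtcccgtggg
Zfand2a, chr5:139484660-139484707, minus strand: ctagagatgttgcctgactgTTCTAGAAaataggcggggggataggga
Hspb3, chr13:113663873-113663920, minus strand: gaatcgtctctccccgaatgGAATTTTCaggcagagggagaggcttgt

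The Hspd1 and Hspe1 lines are the same 58 bases read on opposite strands, as these genes are transcribed away from each other with 215 bases between their starts. Each run of capitals there holds 2 overlapping 3-unit matches. The match of Hsph1 lay after its start and is not shown. Of the 17 tested members with a 2-unit match, 1 was upregulated (Zfand2a) and 1 downregulated (Hspb3), against 11.2% and 13.1% of all genes. At the adjusted p alone 4 were higher and 6 lower, against 21% and 22.6% of all genes. Of the 4 with a 3-unit match none was a DEG, and their log2 fold changes ran from -0.86 to 0.99. A match describes letters and is not a bound site.

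In the HSP70 family 1 of 9 tested genes was a DEG, against 24.3% of all genes, and the median log2 fold change was -0.13. Hspa12b, an atypical HSP70 described in endothelial cells, had a log2 intensity of 9.62, 9.96, 9.65 and 9.71 in WT mice and of 7.49, 7.93 and 5.86 in AR113Q mice. AR113Q replicate 3 was the lowest and the genotypes were far apart. Its log2 fold change was -2.64 ± 0.44 (adjusted p = 0.00225, limma), or 6.23-fold lower, and -2.47 within slide 2. Without AR113Q replicate 3 it was -2.02. It fell by 1.87 on the log2 scale with normexp background correction and by 1.64 in the authors' normalized values, and remained a DEG in each. Of the endothelial markers Pecam1, Cdh5, Kdr and Tek 0 of 4 were DEGs, and their mean log2 intensity was 8.55 to 8.84 on WT and 8.37 to 8.82 on AR113Q arrays. They differed in direction, as Pecam1 was higher by 0.60 (adjusted p = 0.0185) and Tek, Kdr and Cdh5 were at -0.41, -0.42 and -0.22 (not past the adjusted p). Their part in the Hspa12b result was not tested. The probe lies at chr2:130971553-130971612 on the plus strand of mm9.

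Hspa5 (BiP), the HSP70 of the endoplasmic reticulum (ER) and a marker of the unfolded protein response, had a log2 intensity of 13.25, 12.73, 12.80 and 12.95 in WT mice and of 14.24, 13.53 and 13.90 in AR113Q mice. All AR113Q arrays were higher, without overlap. Its difference of 0.96 ± 0.21 (adjusted p = 0.00823, limma) was just under the fold change threshold, and was 1.51 within slide 2. Without WT replicate 1 or without AR113Q replicate 2 Hspa5 passed as a DEG, at 1.07 and 1.14.

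Hspa1a, the heat-inducible cytosolic HSP70, had a log2 intensity of 7.28, 7.90, 6.76 and 9.46 in WT mice and of 6.87, 6.51 and 6.51 in AR113Q mice. WT replicate 4 stood above the rest, and WT replicate 3 lay within the AR113Q range. The difference was -1.22 ± 0.56 (adjusted p = 0.114), with a 95% interval from -2.51 to 0.07. It was -0.68 (adjusted p = 0.116) without WT replicate 4 and -1.59 (adjusted p = 0.0451), past both thresholds, without WT replicate 3. The probe matches transcripts of both Hspa1a and Hspa1b, which are near-identical, so the genes cannot be told apart. WT replicate 4 was also the array with the highest neutrophil markers among WT mice (S100a9 at 12.93 against 6.43 to 7.48), but S100a9 was also above these 3 WT arrays on the AR113Q arrays, at 8.43 to 10.54, where Hspa1a was low. The part of these cells in the Hspa1a values was not tested.

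Hspa8, the constitutive cytosolic HSP70, had a log2 intensity of 14.14 to 14.68 in WT mice and of 14.16 to 14.35 in AR113Q mice. The ranges overlapped fully, and the difference was -0.13 ± 0.19 (adjusted p = 0.619), with a 95% interval from -0.56 to 0.31. The other tested HSP70 genes (Hspa14, Hspa1l, Hspa9 of mitochondria, Hspa13 and Hspa2) lay between -0.21 and 0.47 and did not pass the adjusted p. For Hspa2, AR113Q replicates 2 and 3 (8.11 and 8.10) lay above all WT arrays (7.10 to 7.65) and replicate 1 (7.22) among them. Hspa12a lay below the detection limit on every array and was not tested.

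HSP110 proteins exchange the nucleotide of HSP70 and drive disaggregation with it. Hspa4 (APG-2) was the DEG among the 3 HSP110 genes (33.3%, against 24.3% of all genes, of little weight with 3 genes), but its probes disagreed. The brightest probe had a log2 intensity of 11.26, 11.96, 11.79 and 11.94 in WT mice and of 13.34, 12.91 and 13.00 in AR113Q mice. All AR113Q arrays were higher, and the log2 fold change was 1.35 ± 0.22 (adjusted p = 0.00196, limma) and 1.38 within slide 2. This probe lies at chr11:53075085-53075144 on the minus strand of mm9.

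A second Hspa4 probe, at chr11:53073347-53073406, had a log2 intensity of 7.11, 7.79, 7.03 and 7.41 in WT mice and of 4.97, 6.47 and 5.83 in AR113Q mice. Here the AR113Q arrays were all lower, and the probe was downregulated at -1.58 ± 0.35 (adjusted p = 0.00786, limma). The remaining probe, at chr11:53073594-53073653, differed by -0.84 ± 0.23 (adjusted p = 0.0206). The mean over the 3 probes differed by -0.36, so the direction of Hspa4 depends on the probe. The probes with lower signal in AR113Q mice lie downstream of the first in the direction of transcription. The other HSP110 genes were not DEGs: Hsph1 (HSP105), which is heat-inducible, differed by -0.51 ± 0.23 (adjusted p = 0.101) and Hspa4l by -0.52 ± 0.32 (adjusted p = 0.221). For Hspa4l, AR113Q replicates 1 and 2 (6.59 and 7.17) lay below all WT arrays (7.735 to 8.01) and replicate 3 (8.10) above them.

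**Figure D3:**
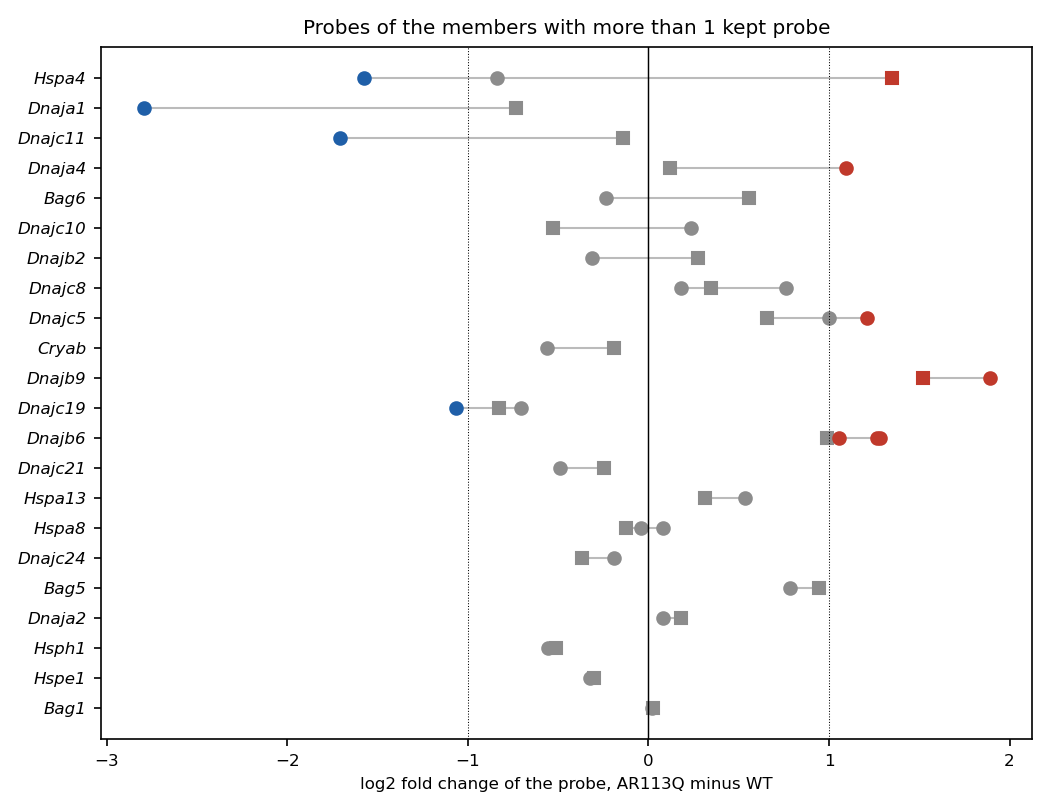
Log2 fold change of each kept probe of the 22 members with more than 1 kept probe, AR113Q minus WT. Squares are the probes that represent the gene, circles the others; red and blue mark probes that passed both thresholds upward and downward, among them the second Dnaja1 probe, which was kept through the WT arrays alone. Hspa4 alone has probes past both thresholds in opposite directions, at 1.35 and -1.58, while the 4 probes of Dnajb6 lie between 0.99 and 1.28.

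J proteins carry the domain that activates HSP70, and their classes differ in the rest of the protein. Of 38 tested J proteins 2 were upregulated and 2 downregulated (10.5%, against 24.3% of all genes). In AR113Q mice 22 had a higher and 16 a lower mean, against 8189 and 8388 of all 16577 genes. Dnajb9 (ERdj4), an ER J protein induced by the unfolded protein response, was upregulated on both of its probes. Its log2 intensity was 9.91, 10.32, 10.10 and 10.36 in WT mice and 11.90, 11.47 and 11.72 in AR113Q mice. The genotypes were well apart, and the log2 fold change was 1.52 ± 0.18 (adjusted p = 0.000583, limma; 2.87-fold) and 1.58 within slide 2. The second probe, which also matches the predicted gene Gm6568, gave 1.89 ± 0.27 (adjusted p = 0.0011). The first probe lies at chr12:45307313-45307372 on the minus strand of mm9.

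Dnajc16 encodes a membrane-bound J protein linked to autophagy. It had a log2 intensity of 6.47, 7.37, 7.17 and 6.68 in WT mice and of 9.43, 8.32 and 8.77 in AR113Q mice. All AR113Q arrays were higher, and the log2 fold change was 1.92 ± 0.31 (adjusted p = 0.00214, limma; 3.77-fold) and 2.05 within slide 2. It was 1.26 with normexp background correction and 1.06 in the authors' normalized values, and remained a DEG in each. The probe lies at chr4:141318096-141318155 on the minus strand of mm9.

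Dnajb5 (HSC40), a close relative of Dnajb1 that is expressed in heart and skeletal muscle, had a log2 intensity of 12.95, 13.05, 12.87 and 13.09 in WT mice and of 11.29, 11.69 and 11.59 in AR113Q mice. The arrays of each genotype were close together and the genotypes far apart. The log2 fold change was -1.46 ± 0.16 (adjusted p = 0.00041, limma), or 2.75-fold lower, and -1.75 within slide 2. The probe lies at chr4:42971494-42971553 on the plus strand of mm9.

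Dnajb3, a J protein known from testis, was at the limit of detection. Its log2 intensity was 4.48, 3.75, 2.73 and 4.18 in WT mice and 2.70, 1.99 and 2.0 in AR113Q mice. It was well above background on 3 WT arrays and on 0 AR113Q arrays, and WT replicate 3 nearly met AR113Q replicate 1. The signal was at least 1.12-fold higher in WT mice, counting the AR113Q arrays at their detection limit. As it met the filter of 3 arrays through the WT arrays alone, where it was the brighter, its call carries no weight of its own, and the filter on all 7 arrays removed it. The call was lost with normexp background correction, where the difference was -0.19, and without AR113Q replicate 2, where the adjusted p was 0.0562.

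Dnajb6 is a strong suppressor of polyglutamine aggregation. Its log2 intensity was 11.60, 11.82, 11.68 and 11.71 in WT mice and 13.16, 12.68 and 12.24 in AR113Q mice. All 3 AR113Q arrays were higher, and replicate 1 was the highest. The difference of 0.99 ± 0.22 (adjusted p = 0.00837, limma) was just short of the threshold, was 1.33 within slide 2, and passed as a DEG without WT replicate 2 or AR113Q replicate 3. Its other 3 probes were each upregulated, by 1.28 ± 0.22, 1.26 ± 0.15 and 1.06 ± 0.15. The array annotation places 3 of the 4 Dnajb6 probes on chromosomes other than the gene's, and whether transcripts of copies elsewhere add to their signal was not tested.

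Dnajb2, the neuronal J protein that also lowers polyglutamine aggregation, had a log2 intensity of 11.14, 11.04, 11.12 and 11.67 in WT mice and of 12.25, 11.33 and 10.98 in AR113Q mice. The ranges overlapped, and the difference was 0.27 ± 0.31 (adjusted p = 0.502), while its dimmer probe differed by -0.31 ± 0.31. Dnajb1 (HSP40), the heat-inducible partner of HSP70, had 11.39, 11.07, 12.00 and 11.76 in WT mice and 10.86, 10.85 and 10.81 in AR113Q mice. Here the AR113Q arrays were lower without overlap, by -0.72 ± 0.23 (adjusted p = 0.0352), and by -0.21 within slide 2.

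Dnaja1, a farnesylated cytosolic J protein, differed by -0.73 ± 0.22 (adjusted p = 0.0257) and by -0.09 within slide 2. Its second probe was well above background on no AR113Q array and was at least 3.44-fold higher in WT mice. It was kept through the WT arrays alone, so no test is given for it. The brighter of these probes is placed on chromosome 1 and the second on chromosome 4, where the gene lies. Among the other J proteins, named here after their values were seen, Dnajc11 of the mitochondrial inner membrane complex had 1 probe at -0.14 ± 0.15 and 1 downregulated at -1.71 ± 0.21, and Dnaja4 had probes at 0.12 ± 0.19 and, upregulated, at 1.10.

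Of 24 tested class C J proteins 1 was a DEG, against 24.3% of all genes. At the adjusted p alone 5 were higher and 5 lower, shares close to the 21% and 22.6% of all genes. The higher ones were Dnajc16, Dnajc25 of the ER (0.90 ± 0.15), Dnajc2, a ribosome-bound J protein (0.70 ± 0.24), Dnajc5, the cysteine string protein of exocytosis (0.66 ± 0.17), and Dnajc7, a cochaperone with TPR repeats (0.64 ± 0.19). The lower ones were Dnajc12 (-0.94 ± 0.25, a DEG without WT replicate 2, AR113Q replicate 2 or AR113Q replicate 3), Dnajc19 and Dnajc15 of the mitochondrial import motor (-0.83 ± 0.22 and -0.62 ± 0.18), the histone chaperone Dnajc9 (-0.54 ± 0.14) and Dnajc10, the ER reductase ERdj5 (-0.53 ± 0.17). Apart from Dnajc16 and Dnajc15, these were named after their values were seen. Of the other Dnajc5 probes, 1 was upregulated at 1.21 ± 0.20 and 1 was just short of the threshold at 0.999 ± 0.19. Of the other Dnajc19 probes, 1 was downregulated at -1.07 ± 0.17 and 1 was at -0.71 ± 0.16. The dimmer Dnajc10 probe, well above background on 1 WT and 3 AR113Q arrays, differed by 0.23 ± 0.29. Dnajc6 and Dnajc22, and Dnajb7, Dnajb8 and Dnajb13 of class B, stayed below the detection limit on all arrays and were not tested.

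None of the 6 BAG genes was a DEG, against 24.3% of all genes, and at the adjusted p alone 2 were higher, Bag5 and Bag6, against 21% of all genes. The mean was higher in AR113Q mice for 5 of 6, with a median difference of 0.46, against 8189 of all 16577 genes and a median of -0.01. Bag3, the partner of HSPB8 in chaperone-assisted selective autophagy and a maintenance factor of the Z disc, had a log2 intensity of 12.28, 12.87, 12.54 and 13.25 in WT mice and of 13.11, 13.35 and 13.32 in AR113Q mice. WT replicate 4 lay within the AR113Q range. The difference was 0.52 ± 0.24 (adjusted p = 0.109), with a 95% interval from -0.02 to 1.07, and 0.24 within slide 2. Bag1, which links HSP70 to the proteasome, was nearly level, at 0.03 ± 0.13 (adjusted p = 0.883). Bag5 and Bag6 passed the adjusted p alone and were named after their values were seen. They differed by 0.94 ± 0.25 (adjusted p = 0.0161, limma) and 0.56 ± 0.18 (adjusted p = 0.0352, limma). Bag5 became a DEG without WT replicate 2, AR113Q replicate 2 or AR113Q replicate 3. The dimmer Bag5 probe differed by 0.78 ± 0.20 and the dimmer Bag6 probe by -0.23 ± 0.34.

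None of the 3 HSP90 genes passed the adjusted p, against 43.6% of all genes. Hsp90aa1, the stress-inducible form, had a log2 intensity of 10.56, 10.78, 10.18 and 11.41 in WT mice and of 9.77, 10.67 and 10.43 in AR113Q mice. The ranges overlapped, WT replicate 4 was the highest, and the difference was -0.44 ± 0.32 (adjusted p = 0.297), with a 95% interval from -1.18 to 0.30. With 1 array left out it ran from -0.63 to -0.185, and it was -0.22 without WT replicate 4. Hsp90ab1, the constitutive form, differed by 0.34 ± 0.22 (adjusted p = 0.24), and Hsp90b1 of the ER by 0.09 ± 0.26 (adjusted p = 0.803). Without AR113Q replicate 3 Hsp90ab1 was at 0.57 (adjusted p = 0.0353, limma), and without AR113Q replicate 1 at 0.11.

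The small heat shock proteins held the member with the highest positive log2 fold change of the family and 2 of its downregulated genes. Of the 9 genes 3 were DEGs (33.3%, against 24.3% of all genes), 1 upregulated and 2 downregulated (against 11.2% and 13.1%). Hspb7 (cvHSP), which binds filamin C at the sarcomere and is a potent suppressor of polyglutamine aggregation, had a log2 intensity of 8.48, 10.35, 10.07 and 10.02 in WT mice and of 12.75, 12.21 and 13.20 in AR113Q mice. All 3 AR113Q arrays were above all WT arrays, and WT replicate 1 was the lowest. The log2 fold change was 2.99 ± 0.45 (adjusted p = 0.00152, limma; 7.94-fold), and 2.40 within slide 2. Without WT replicate 1 it was 2.57 and remained a DEG. The probe lies at chr4:140980355-140980414 on the plus strand of mm9.

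Hspb3 and Hspb2 form a complex with each other in differentiated muscle. Hspb3 had a log2 intensity of 12.20, 11.95, 12.02 and 12.10 in WT mice and of 10.04, 11.05 and 11.15 in AR113Q mice. All AR113Q arrays were lower and replicate 1 was the lowest. The log2 fold change was -1.32 ± 0.27 (adjusted p = 0.0056, limma; 2.50-fold lower) and -1.91 within slide 2. The probe lies at chr13:114453236-114453295 on the minus strand of mm9.

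Hspb2 (MKBP) had a log2 intensity of 13.71, 13.41, 13.78 and 13.52 in WT mice and of 11.66, 12.32 and 13.14 in AR113Q mice. The AR113Q arrays were lower and far apart from each other. The log2 fold change was -1.23 ± 0.32 (adjusted p = 0.0157, limma; 2.35-fold lower) and -1.76 within slide 2. Both genes lost the call without AR113Q replicate 1, where Hspb3 was at -0.97 and Hspb2 at -0.87. The Hspb2 probe lies at chr9:50559211-50559270 on the minus strand of mm9, next to Cryab on the plus strand.

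Cryab (αB-crystallin), which protects desmin and titin, had a log2 intensity of 15.98, 15.96, 16.32 and 16.39 in WT mice and of 15.29, 15.58 and 17.04 in AR113Q mice. AR113Q replicates 1 and 2 lay below all WT arrays and replicate 3 above them. The difference was -0.19 ± 0.39 (adjusted p = 0.719), and -0.72 ± 0.20 (adjusted p = 0.0227) without AR113Q replicate 3. Hspb6 (HSP20), named after its values were seen, split in the same way, with 15.53, 15.81, 15.81 and 15.85 in WT mice and 13.99, 14.22 and 16.54 in AR113Q mice. Its difference was -0.83 ± 0.55 (adjusted p = 0.255), and -1.64 ± 0.17 (adjusted p = 0.000803), past both thresholds, without AR113Q replicate 3.

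These arrays also differed in the RNA of slow fiber markers. Slow myosin Myh7 had a log2 intensity of 4.95, 12.56, 11.89 and 6.66 in WT mice and of 6.66, 6.22 and 13.59 in AR113Q mice. The 6 slow fiber markers together had a mean of 6.39 to 11.34 on WT arrays and of 6.29 to 12.72 on AR113Q arrays, 0 of 6 were DEGs, and 5 of 6 were well above background on all 7 arrays. AR113Q replicate 3, with the highest Hspb6 and Cryab, had the highest slow fiber mean, while WT replicates 2 and 3, which were high in slow fiber markers, and WT replicates 1 and 4, which were low, differed little in Hspb6 and Cryab. The part of slow fibers in these results was not tested.

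**Figure D4:**
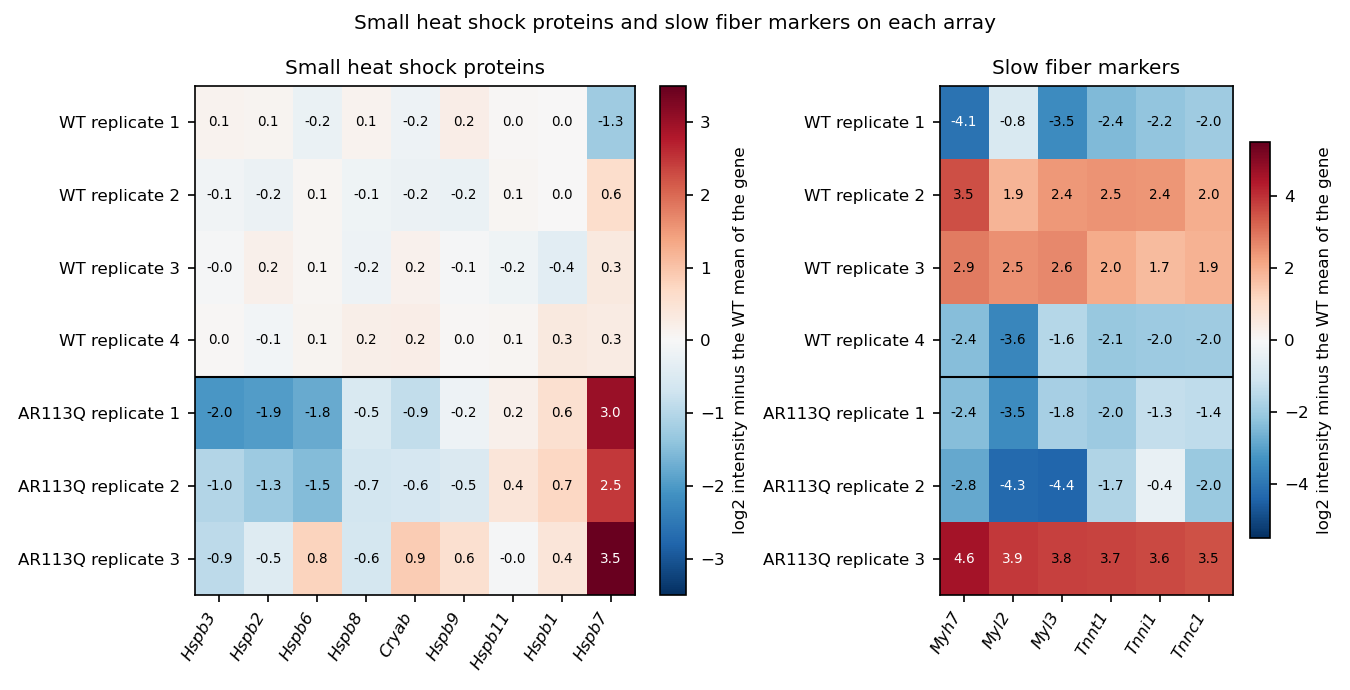
Log2 intensity minus the WT mean of the gene for the 9 small heat shock proteins (left) and 6 slow fiber markers (right), 1 line of cells per array, with a colour scale for each panel. Hspb7 is higher and Hspb3, Hspb2 and Hspb8 lower on all 3 AR113Q arrays. Hspb6 and Cryab lie below all WT arrays on AR113Q replicates 1 and 2 and above them on AR113Q replicate 3. Myh7 is at 13.59 on AR113Q replicate 3, and the part of slow fibers was not tested.

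Hspb8 (HSP22), which with BAG3 clears misfolded proteins, had a log2 intensity of 14.28, 14.02, 13.99 and 14.37 in WT mice and of 13.64, 13.51 and 13.56 in AR113Q mice. Here too AR113Q was lower without overlap, by -0.59 ± 0.16 (adjusted p = 0.0173), and by -0.38 within slide 2. Hspb1 (HSP27), which guards the actin cytoskeleton, had 14.77, 14.77, 14.38 and 15.08 in WT mice and 15.31, 15.47 and 15.16 in AR113Q mice. The AR113Q arrays were higher, by 0.56 ± 0.19 (adjusted p = 0.045), on a probe that the array annotation places on chromosome 13 rather than on the gene's chromosome 5. The other small heat shock proteins, Hspb9 and Hspb11, differed by -0.03 and 0.19 and did not pass.

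The mitochondrial chaperonin folds imported proteins in the matrix. Hspd1 (HSP60) had a log2 intensity of 12.41, 12.62, 12.75 and 12.66 in WT mice and of 11.60, 11.62 and 12.05 in AR113Q mice. The AR113Q arrays were lower without overlap, with a difference of -0.86 ± 0.17 (adjusted p = 0.00545, limma) and of -1.02 within slide 2, and it passed as a DEG without AR113Q replicate 3. Its partner Hspe1 (HSP10), which shares the promoter stretch shown above, differed by -0.30 ± 0.18 (adjusted p = 0.203), with a 95% interval from -0.70 to 0.11, and the difference between the partners was not tested. The array annotation places both probes on other chromosomes than their genes, as it does for the Hspa8 probes and for 13 of the 104 kept member probes in all. Whether copies there add to the signal was not tested.

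Genes of the chaperone system outside the family were read from 4 lists. Of 52 tested genes 2 were upregulated and 7 downregulated (17.3%, against 24.3% of all genes). Among the cochaperones of HSP90 and HSP70, 1 of 21 was upregulated and 5 were downregulated (28.6% in all). Unc45b, the myosin chaperone that works with HSP90 in muscle, had a log2 intensity of 9.69, 9.24, 9.48 and 9.51 in WT mice and of 7.32, 8.06 and 8.36 in AR113Q mice. In AR113Q mice all arrays were lower, and the log2 fold change was -1.57 ± 0.25 (adjusted p = 0.00203, limma). Smyd1, the muscle methyltransferase that acts with UNC45B on myosin, was downregulated at -1.02 ± 0.33 (adjusted p = 0.0374), with overlap between genotypes.

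The immunophilins of steroid receptor complexes went in different directions. Fkbp5, itself induced by glucocorticoids, had a log2 intensity of 10.06, 11.58, 9.79 and 11.03 in WT mice and of 12.02, 12.40 and 12.37 in AR113Q mice. All AR113Q arrays were higher, by 1.65 ± 0.42 (adjusted p = 0.0141, limma), while WT mice spread widely, and the difference within slide 2 was 0.44. Ppid (cyclophilin 40) was downregulated at -1.47 ± 0.23 (adjusted p = 0.00159) and Fkbp4 (FKBP52) at -1.31 ± 0.23 (adjusted p = 0.00281), as was the HSP90 cochaperone Chordc1 (-1.18 ± 0.22, adjusted p = 0.00365). Stip1 (HOP), which bridges HSP70 and HSP90, and Ahsa1, an activator of the HSP90 ATPase, did not pass, with adjusted p of 0.40 and 0.344. Fkbp4, Chordc1 and Smyd1 were named after their values were seen.

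Among 13 organelle chaperones Serpinh1 and Pdia4 were downregulated (15.4%, close to the 13.1% of all genes) and none was upregulated, against 11.2% of all genes. Serpinh1 (HSP47), the collagen chaperone of the ER, had a log2 intensity of 10.62, 10.36, 10.04 and 11.08 in WT mice and of 7.97, 8.54 and 8.16 in AR113Q mice. The genotypes were far apart, and the log2 fold change was -2.30 ± 0.26 (adjusted p = 0.000508, limma). Of 5 fibroblast markers the collagens Col1a1, Col1a2 and Col3a1 were downregulated on the same arrays, while Dcn was at 0.41 (adjusted p = 0.0692), higher without overlap, and Pdgfra at -0.27 (adjusted p = 0.425). The mean of the 5 markers was 12.99 to 13.44 on WT and 10.40 to 11.72 on AR113Q arrays, and its part in the Serpinh1 result was not tested. Pdia4, an ER disulfide isomerase, was downregulated at -1.19 ± 0.37 (adjusted p = 0.0326) and differed by -0.28 within slide 2. Its call was lost in 9 of 23 alternative settings, among them the authors' values (-0.49), normexp (-0.66) and the fits without WT replicate 1, WT replicate 4, AR113Q replicate 2 or AR113Q replicate 3 (-1.33 to -0.77). None of the 14 genes of the cytosolic chaperonin and prefoldin was a DEG, against 24.3% of all genes, none was lower at the adjusted p alone, against 22.6%, and 3 (Cct2, Cct3 and Pfdn2) were higher at the adjusted p alone, by 0.61 to 0.77, a share close to the 21% of all genes.

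Of 4 tested regulators of heat shock factors 1 was upregulated, against 11.2% of all genes, and 2 more were higher at the adjusted p alone, which 21% of all genes passed in this direction. Sirt1, the deacetylase that prolongs HSF1 binding to DNA, had a log2 intensity of 8.39, 8.44, 8.48 and 8.46 in WT mice and of 9.90, 9.77 and 9.71 in AR113Q mice. The arrays of each genotype lay close together and the genotypes apart, and the log2 fold change was 1.35 ± 0.13 (adjusted p = 0.000306, limma). Hdac6, the deacetylase that carries ubiquitinated aggregates, and Vcp, the p97 segregase, whose probe is placed on chromosome X rather than with the gene, passed the adjusted p alone, at 0.62 ± 0.17 and 0.76 ± 0.17.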

How the data were processed

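Quadriceps RNA of 7 mice was labelled with Cy3 and hybridized to Agilent 4x44K V2 mouse arrays, 1 mouse per array. Per the labels, spots were quantified by the authors in Feature Extraction 10.7.3.1, and the deposited scanner files hold an intensity per spot that is background-subtracted and not normalized between arrays, with the mean spot intensity and the local background. A second deposited table, made by the authors, gives quantile-normalized log2 values and served as an alternative. Background subtraction widens the log2 spread of dim spots. No spot was saturated. Nothing else of the study was analysed here, and a check of the targeted gene is not reported here.

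Outlier and control spots were left out, log2 of the background-subtracted intensity was quantile normalized and spots of a probe were averaged. A probe was kept if at least 3 of the 7 arrays had it well above background. For a gene with several kept probes the brightest stood for the gene. Genes were named through RefSeq accessions, which matched 111 of the 114 member probes, while the rest kept the names in the scanner files. Probe positions come from the array annotation (mm9), and gene annotation of that build was not used here. Promoters are RefSeq windows of GRCm38.p6. Genotypes were compared with lmFit and eBayes of limma 3.58.1 in R 4.3.3 over all 16577 genes, with Benjamini-Hochberg adjustment and no covariate, and errors are SE of the log2 fold change. The procedure was tested on simulated data. P-values measure the spread between these arrays, which holds differences between mice and between slides. The number of arrays limits the precision.

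The members, the lists of other chaperone genes and the markers were chosen with earlier results of these data known. The genes named were, in each class, the DEGs with the 2 largest increases and the 2 largest decreases, the member with the highest mean, members with probes called in opposite directions, a set of well-known chaperones, and, of the other lists, the 2 most increased and 2 most decreased DEGs with Unc45b, Stip1, Ahsa1 and Fkbp5. Alternatives were 75th percentile scaling, normexp with an offset of 50, the authors' values, no filter on dim probes or a filter of all 7 arrays, the mean over probes or any probe, outlier spots kept, an intensity trend, slide as a random or fixed effect, the replicate number as a block, array weights, no fold change threshold, unadjusted p and each array left out. Using the mean spot intensity with no subtraction is an alternative chosen after seeing the data.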

Additional observations from a re-analysis of the deposited data

Results flagged for a closer look

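Dnajb2 on WT replicate 4 had a log2 intensity of 11.67, while the other WT arrays lay between 11.04 and 11.14, and this gap was large for the range of the group. It was the 1 gene of 40 tested for an array that stands apart among the 4 WT arrays, where chance gives about 1 in 20.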

How the results depend on the processing

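Of the 10 DEGs among the members, all 10 were also called with 75th percentile scaling, no filter on dim probes, outlier spots kept, an intensity trend, slide as a random block, array weights and unadjusted p. Scaling to the 75th percentile added Bag5 and Dnajb6, and array weights added Dnajb6. Dnajb3 was lost with normexp, the authors' values, the filter on all 7 arrays and mean spot intensity, and Hspa4 with the mean over probes. With any probe of a gene 8 members were upregulated and 8 downregulated (Dnaja1 and Dnajb3 through probes kept by their WT arrays alone), with no fold change threshold 15 and 17, and with slide as a fixed effect 0 and 0 (other chaperone genes likewise 0 and 0). Leaving out 1 array gave 5 to 8 upregulated and 3 to 8 downregulated members. There were 3 downregulated without AR113Q replicate 1, which lost Hspb2 and Hspb3, and 8 in each direction without AR113Q replicate 3. The other chaperone genes had 4 downregulated with normexp and 4 in the authors' values, 9 upregulated and 11 downregulated with no fold change threshold, and 2 to 3 upregulated and 5 to 7 downregulated with 1 array left out.

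Same-numbered WT and AR113Q arrays did not deviate together (r across genes 0.04, -0.02 and 0.16), so replicate numbers were not taken as pairs. The fit with replicate number as a block called the same 10 members, 5 upregulated and 5 downregulated.

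Of the values that turned their sign, Hspa4 alone had been called, and it was at -0.36 with the mean over probes. Slide as a fixed effect turned Ahsa1 to 0.23, Hspa8 to 0.17, Hsph1 to 0.018 and Stip1 to 0.28. Bag1 was at -0.030 with 75th percentile scaling, and at -0.0016 (without AR113Q replicate 3) to 0.060 with 1 array left out. Cryab ranged from -0.72 to 0.15 with 1 array left out, above 0 without AR113Q replicate 1 or 2. The Dnajb2 log2 fold change was -0.018 with the mean over probes and -0.31 with any probe, and -0.092 (without AR113Q replicate 1) to 0.55 with 1 array left out. Hsf2, near 0, was at 0.034 with normexp, 0.036 in the authors' values, 0.0014 with outlier spots kept, 0.0067 with slide as a random block, 0.015 with the replicate block, 0.17 with array weights, 0.029 with mean spot intensity, and -0.24 to 0.14 with 1 array left out. Except for the probe of Hspa4, the cause was not tested. Where each slide had its own term, the difference rested on the slide that carried both genotypes. Whether slide differences or this choice of arrays turned those signs was not tested. Dim signals limit Dnajb3, and placement on another chromosome limits 13 of the kept probes.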
